A study of Homo sapiens with 6 samples.

Results

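The NOTCH receptors and the genes that their signal acts on were examined in MOLT-4 cells, a long-established human line of T-cell acute lymphoblastic leukemia (T-ALL). The group comprised 10 genes, taken by gene symbol from the 60640 gene identifiers of the RNA-seq tables. They were the receptors NOTCH1, NOTCH2 and NOTCH3, the DNA-binding partner RBPJ, the ubiquitin ligase gene FBXW7, and the direct targets HES1, HES4, HEY1, DTX1 and NRARP. Polyadenylated RNA was measured in 3 libraries of wild type cells, described in the labels as the control of the CRISPR knockout, and in 3 further libraries labelled IK-KO, from cells where CRISPR-Cas was directed at IKZF1, the gene of the DNA-binding protein IKAROS. All were grown in the same medium, and the labels name no other allele or agent. The edited cells and their control were bought, and the study blotted a pair of knockout clones, but the labels do not say which clone was sequenced or whether replicates were separate cultures. Differences between clones therefore cannot be told apart from effects of the targeting, and a p-value covers only the spread among these libraries, which may be technical.

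NOTCH receptors are cut after they bind a ligand on a neighbouring cell, and the freed intracellular domain enters the nucleus. There it joins RBPJ and Mastermind-like coactivators and turns on genes at which RBPJ otherwise sits with corepressors. The pathway drives commitment of thymic progenitors to the T lineage, and activating NOTCH1 mutations and loss of FBXW7, which marks the intracellular domain for destruction, are common in T-ALL. IKAROS and RBPJ recognise DNA that shares the letters TGGGAA.

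Levels are given as FPKM (fragments per kilobase of transcript, scaled to the mapped fragments of the library), which is per length, so that levels of different genes can be set side by side. A gene was tested when its mean FPKM over the 6 libraries was at least 1, and called when its limma adjusted p, over all genes tested, was under 0.05. The FPKM of a library summed to between 699352 and 738051, and between 21254 and 21887 rows of a table lay above 0. IKZF1 itself had 134, 124 and 105 FPKM in wild type libraries, against 207, 260 and 207 FPKM in the IK-KO-labelled libraries, so its RNA was higher, not lower (log2 change 0.89, SE 0.12, limma adjusted p 0.00295). The study states that it checked the knockout by PCR and western blot, and an RNA level does not measure the protein. The labels are used as given, and no direction below was drawn from this RNA. Of 10 T-lineage markers, 8 were at 1 FPKM or more in every library; CD4 and PTCRA were not. The highest value among 5 markers each of the B, myeloid and erythroid lineages was 1.83, 0.519 and 0.593 FPKM. The T-lineage markers did not stay level: 5 of the 10 were called lower and 4 higher, and 9 did not overlap between the groups, against 39.0% of all tested genes. Chosen after their values were seen, CD2 fell from 61.5 ± 2.45 to 5.14 ± 0.217 FPKM and DNTT from 85.9 ± 4.11 to 26.4 ± 1.66 FPKM (SD, n = 3). CD7, CD4 and CD5 were also called lower, by log2 changes of −1.72, −1.45 and −1.06. CD1A (0.86), CD3G (0.65), CD3D (0.44) and PTCRA (0.69) were called higher, and CD3E was not called. The part of these shifts in the results below was not tested.

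Promoter sequence came first, because HES1 and HES4 shared an arrangement of RBPJ letters. HES1 was also the only direct target among the 10 genes that was tested, and it was called higher. RefSeq windows (GRCh38.p14) were used for 8 of the 10 genes, and HEY1 and DTX1 are named only. The HES1 window, 250 bases before its start site, is chr3:194135898-194136147 on the plus strand. Capitals mark GTGGGAA, then a separate TGGGAA, and then TTCACAC.
HES1: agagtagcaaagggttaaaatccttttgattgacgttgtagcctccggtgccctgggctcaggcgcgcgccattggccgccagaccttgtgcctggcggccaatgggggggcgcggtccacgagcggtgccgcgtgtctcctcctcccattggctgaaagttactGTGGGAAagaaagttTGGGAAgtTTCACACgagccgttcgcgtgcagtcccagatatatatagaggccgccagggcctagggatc
The first GTGGGAA begins 85 bases before the start site and is followed, after a spacer of 16 bases, by TTCACAC, with a second TGGGAA between them. The same pair at the same spacing was found in HES4, which is shown aligned with HES1 to let the spacers be compared.
HES1: GTGGGAAagaaagttTGGGAAgtTTCACAC
HES4: GTGGGAAagaatgcggagccgggTTCACAC
The HES1 stretch is chr3:194136063-194136092 on the plus strand, and the HES4 stretch is chr1:1000145-1000174 on the minus strand. The HES4 stretch lies before the RefSeq start site, but GENCODE begins one HES4 transcript 75 bases earlier, so that nearly all of it falls in the 5′ UTR of that transcript. The stretches were identical at 21 of 30 bases, and at 7 of the 16 spacer bases.

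The pair with this spacing, searched on both strands, occurred in 2 of 35116 promoter windows, those of HES1 and HES4. The letters and the spacing were read from these promoters, so that they hold it is no finding. The number of other windows with it was 0, but an exact match of this length is rare in any sequence. No other spacing or letter variant was searched, so this count does not show the arrangement to be particular to these genes. Singly the letters were more frequent: GTGGGAA on either strand was present in 5.43% of the windows, TTCACAC in 2.48%, TGGGAA in 20.8%, and GGGAA, which lies within TGGGAA, in 59.0%. NRARP, the remaining target whose window was used, is shown because its listed values lay lower, not higher, in the libraries labelled IK-KO. It was not part of the main test. The windows shown were picked with the changes known, and a link between letters and direction was not tested.
NRARP: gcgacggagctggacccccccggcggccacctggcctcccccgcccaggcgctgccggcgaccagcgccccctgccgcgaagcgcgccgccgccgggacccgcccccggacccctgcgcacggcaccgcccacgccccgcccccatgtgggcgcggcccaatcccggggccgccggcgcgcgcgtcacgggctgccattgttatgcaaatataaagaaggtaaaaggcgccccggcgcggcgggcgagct
This window, chr9:137302272-137302521 on the minus strand, held none of these letters on either strand, GGGAA included. Nor did the windows of NOTCH1 and NOTCH3, whereas the NOTCH2 window held GGGAA alone, 99 bases before the start. Of the 5 RBPJ windows, the second held GTGGGAA on each strand, and none of the 4 FBXW7 windows held TGGGAA. A match in letters does not show a bound site.

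Of the 10 genes, 5 were tested and 2 were called, HES1 higher and NOTCH2 lower. Across all 12652 tested genes 19.9% were called, 10.1% higher and 9.75% lower. The groups did not overlap for 3 of the 5 tested genes, NOTCH2, RBPJ and HES1, against 39.0% of all tested genes. HES4, DTX1, NOTCH3 and NRARP were measured below 1 FPKM on average and were not part of the main test. HEY1, which encodes a HES-related repressor, was listed at 0 in each library. RNA of cultures does not distinguish less RNA per cell from fewer cells that express a gene.

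**Figure D1:**
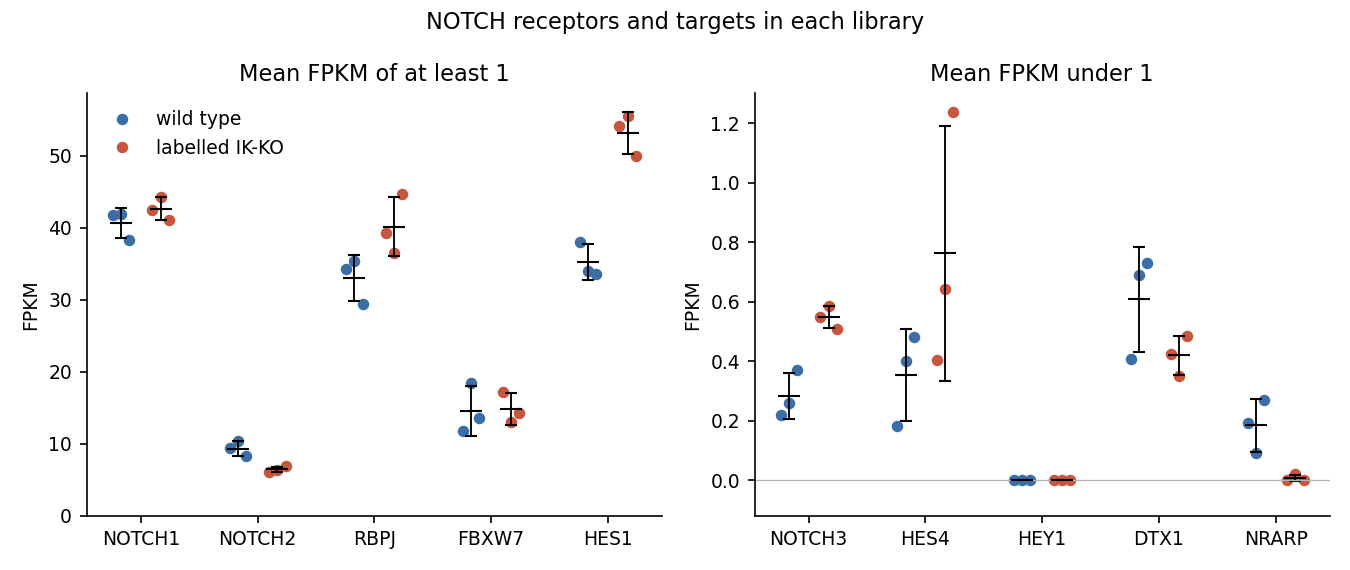
FPKM of each gene in each library, for genes with a mean of at least 1 (left) and under 1 (right), on separate linear axes. Points are libraries, and the horizontal mark and bars are the mean and SD of 3 libraries. HES1 lies between 49.9 and 55.5 FPKM in the IK-KO-labelled libraries, above every wild type library, and NOTCH1 overlaps between the groups.

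NOTCH1, the receptor most often mutated in T-ALL, was the most abundant of the 10 transcripts in wild type. It is ENSG00000148400.12, on chromosome 9 from 136494433 to 136546048 (GRCh38, minus strand). It was at 41.8, 41.9 and 38.3 FPKM in wild type libraries, against 42.5, 44.3 and 41.1 FPKM in the IK-KO-labelled libraries. The groups overlapped, with means of 40.7 ± 2.09 and 42.6 ± 1.62 FPKM (SD, n = 3). The log2 change was 0.07 (SE 0.06, 95% interval −0.08 to 0.21, limma adjusted p 0.498), an interval that holds neither a fall of the size common on its chromosome nor a rise of more than 0.21.

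Genes around NOTCH1 behaved differently. Of the 469 tested genes of chromosome 9, 88.5% had lower means in the libraries labelled IK-KO. Their median log2 change was −0.35, against 0.03 on the other chromosomes, and 220 were called lower. Without the filter on low values the chromosome 9 median was −0.11. NOTCH1 had a larger log2 change than 426 of these 469 genes. Among its tested neighbours, 50 before and 28 after it up to the chromosome end, the median was −0.34, and 5 of the 78 had a change above that of NOTCH1. With the neighbours' median removed in each library, the NOTCH1 change was 0.43 (limma adjusted p 0.00204). In that fit 2349 of the 12652 tested genes were called. Its p covers the spread among libraries, not the rank of NOTCH1 on chromosome 9, where 42 tested genes had a larger change. NOTCH1 was thus level in FPKM, with a change above that of most tested genes of its chromosome, and the cause of this was not tested.

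**Figure D2:**
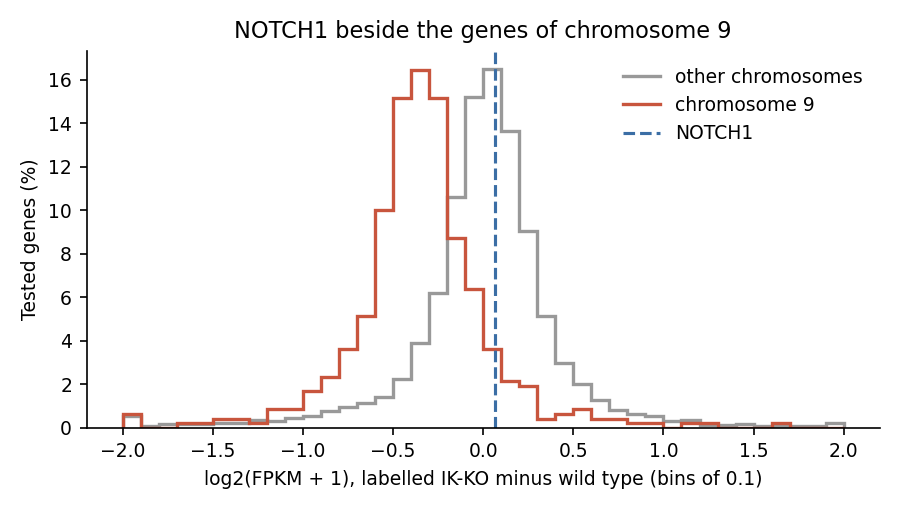
Share of tested genes by log2 change, in bins of 0.1, for chromosome 9 (469 genes) and for all other chromosomes. The outermost bins also hold genes beyond the axis. The bulk of chromosome 9 lies below 0, with a median of −0.35, and NOTCH1 (dashed line) lies at 0.07.

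NOTCH2, the paralogous receptor, fell in the libraries labelled IK-KO. It is ENSG00000134250.20, on chromosome 1 from 119911553 to 120100779 (minus strand). Wild type libraries were at 9.38, 10.3 and 8.26 FPKM, and those labelled IK-KO at 6.13, 6.40 and 6.85 FPKM. No library of one group reached the other. The means were 9.32 ± 1.03 and 6.46 ± 0.361 FPKM (SD, n = 3), and the log2 change was −0.46 with an SE of 0.10 (limma adjusted p 0.0198).

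The NOTCH2 call was fragile. Each of 4 libraries decided it: the adjusted p was 0.0677 without wild type replicate 1, 0.0691 without wild type replicate 2, 0.0674 without IK-KO replicate 1 and 0.0649 without IK-KO replicate 2. NOTCH2 also has near-identical partial copies, 3 NOTCH2NL genes and the pseudogene NOTCH2P1, among which the estimation could divide fragments. These copies summed to 9.65, 12.4 and 8.81 FPKM in wild type and to 9.84, 9.82 and 10.2 FPKM in the IK-KO-labelled libraries. The copies together overlapped between the groups, with means of 10.3 FPKM in wild type and 9.95 FPKM in the IK-KO-labelled libraries. NOTCH2 itself had means of 9.32 and 6.46 FPKM, so the copies were about as abundant in wild type and more abundant in the IK-KO-labelled libraries. With the copies added to NOTCH2, an alternative chosen after the data were seen, the log2 change was −0.24 and was not called (limma adjusted p 0.170). Adding copies that lay at similar levels in both groups shrinks a log2 change in any case. This sum therefore cannot show whether fragments were divided among them.

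NOTCH3, a receptor that is itself a target of NOTCH1 in T cells, was barely detected. It was at 0.219, 0.260 and 0.369 FPKM in wild type libraries, against 0.549, 0.585 and 0.509 FPKM in the IK-KO-labelled libraries. The groups did not overlap, which held for 13.0% of the genes above 0 in a library with a mean FPKM under 1. The lower confidence bound that the tables list was 0 in each wild type library and lay between 0.0668 and 0.256 FPKM in the IK-KO-labelled libraries. Without the filter on low values, where 2.26% of such genes were called, NOTCH3 was not called (log2 change 0.27, limma adjusted p 0.0742). With a pseudocount of 0.1, which compresses low values less, the change was 0.78.

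Receptor RNA as a whole did not separate the groups. NOTCH1, NOTCH2 and NOTCH3 summed to 50.3 ± 2.99 FPKM in wild type and to 49.6 ± 1.49 FPKM in the IK-KO-labelled libraries (SD, n = 3). Its make-up did separate them. NOTCH1 held 81.3%, 79.9% and 81.6% of the sum in wild type and 86.4%, 86.4% and 84.8% in the libraries labelled IK-KO. NOTCH2 held between 17.6% and 19.7% in wild type and between 12.5% and 14.1% in those labelled IK-KO, and NOTCH3 held at most 1.14% in any library. These shares are descriptions with no test, and they carry the uncertainty of NOTCH2 and its copies.

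RBPJ, through which the receptors reach DNA, was at 34.2, 35.3 and 29.4 FPKM in wild type libraries, against 39.3, 36.5 and 44.6 FPKM in the IK-KO-labelled libraries. The groups did not overlap, but the lowest library labelled IK-KO lay only just above the highest wild type library. The log2 change was 0.28 (SE 0.10, 95% interval 0.04 to 0.51) and was not called (limma adjusted p 0.0958). RBPJ (ENSG00000168214.20) spans chromosome 4 from 26163455 to 26435131, on the plus strand. Its 4 pseudogenes in the tables were listed at 0 in each library.

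FBXW7 encodes the substrate-binding subunit of the ubiquitin ligase that recognises the phosphorylated NOTCH1 intracellular domain. It was at 11.7, 18.4 and 13.5 FPKM in wild type libraries, against 17.2, 13.0 and 14.3 FPKM in the IK-KO-labelled libraries. The values were interleaved, and the spread within wild type was larger than the difference between the groups. The log2 change was 0.04 (SE 0.17, limma adjusted p 0.903), and its 95% interval of −0.36 to 0.44 holds changes of either sign, so a modest change was not detectable. The sign turned without wild type replicate 1 (−0.09) and without IK-KO replicate 1 (−0.07). FBXW7 (ENSG00000109670.16) lies on chromosome 4 from 152320544 to 152536092, on the minus strand. The FPKM tables carry no sequence, so mutations of FBXW7 or NOTCH1 cannot be read from them.

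HES1, a repressor of the basic helix-loop-helix family and a direct RBPJ target, rose in the libraries labelled IK-KO. It is ENSG00000114315.4, on chromosome 3 from 194136148 to 194138732, just after the promoter shown above. Wild type libraries were at 38.1, 34.0 and 33.6 FPKM, and those labelled IK-KO at 54.2, 55.5 and 49.9 FPKM. The groups did not overlap. The highest upper confidence bound in wild type was 40.9 FPKM, and the lowest lower bound in the libraries labelled IK-KO was 46.6 FPKM. These bounds cover the estimate within a library, not the spread between libraries. The means were 35.2 ± 2.46 and 53.2 ± 2.93 FPKM (SD, n = 3), 1.51 times higher, and the log2 change was 0.58 with an SE of 0.07 (limma adjusted p 0.00199). The call held without each library in turn.

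Set against its receptor in the same library, HES1 was at 0.910, 0.812 and 0.878 of the NOTCH1 FPKM in wild type and at 1.28, 1.25 and 1.21 in the libraries labelled IK-KO. HES1 thus passed NOTCH1 in abundance only in the libraries labelled IK-KO, a description with no test. In wild type the order of mean levels ran from NOTCH1 through HES1, RBPJ, FBXW7 and NOTCH2 to the low genes. HES1 and RBPJ overlapped there, while the lowest NOTCH1 library lay less than 1 FPKM above the highest HES1 library. In the libraries labelled IK-KO the order was HES1, NOTCH1, RBPJ, FBXW7 and NOTCH2, and NOTCH1 and RBPJ overlapped. FBXW7 and NOTCH2 did not overlap each other in either group.

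**Figure D3:**
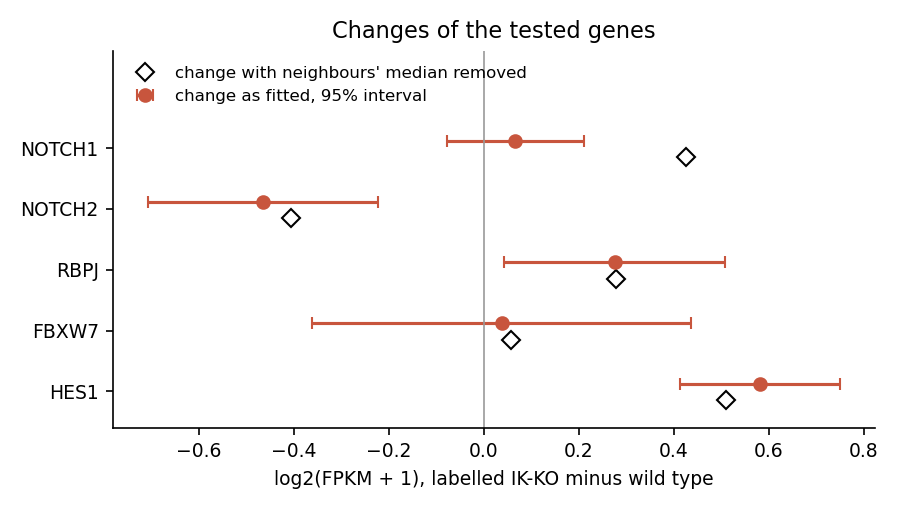
Log2 change (labelled IK-KO minus wild type, 3 libraries each) of the 5 tested genes, with the 95% limma interval, and the change with the median of chromosome neighbours removed (diamonds). HES1 and NOTCH2 keep their direction in both, at 0.51 and −0.41 with neighbours removed, whereas NOTCH1 moves from 0.07 to 0.43.

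The other direct targets of the group, HES4, HEY1, DTX1 and NRARP, were not part of the main test and so could not be called there. HES4, the HES1 paralogue with the shared promoter pair, was at 0.181, 0.402 and 0.480 FPKM in wild type libraries, against 0.405, 0.644 and 1.24 FPKM in the IK-KO-labelled libraries. The groups overlapped, and IK-KO replicate 3 stood above the rest. Without the filter on low values its log2 change was 0.36 and was not called (limma adjusted p 0.411). With that library removed the log2 change was 0.17, and with a pseudocount of 0.1 and all libraries it was 0.87.

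DTX1, a ubiquitin ligase and NOTCH target expressed in developing T cells, was at 0.406, 0.690 and 0.730 FPKM in wild type libraries, against 0.424, 0.350 and 0.483 FPKM in the IK-KO-labelled libraries. The lowest wild type library lay within the other group. Without the filter the log2 change was −0.18 and was not called (limma adjusted p 0.441), and with a pseudocount of 0.1 it was −0.42.

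NRARP encodes a small ankyrin-repeat protein that is induced by NOTCH and dampens its signal. It was at 0.191, 0.0908 and 0.270 FPKM in wild type, was listed at 0 in IK-KO replicates 1 and 3, and was at 0.0187 FPKM in IK-KO replicate 2. The groups did not overlap. The confidence bounds, read as plus and minus 2 SD of a fragment count, imply only 9.09, 4.07 and 12.1 fragments in the wild type libraries and 0.50 in IK-KO replicate 2, so that the difference rests on a few fragments. Without the filter NRARP was not called (log2 change −0.23, limma adjusted p 0.0917); a pseudocount of 1 compresses changes at this level, and with a pseudocount of 0.1 the change was −1.37. NRARP lies on chromosome 9 from 137299631 to 137302271, where the median of its 56 tested neighbours was −0.35. Those neighbours lay at a mean of at least 1 FPKM, where this scale compresses changes less, so the values cannot be compared. Whether NRARP shares their shift was not tested.

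The wider pathway was described through lists holding 79 further genes, of which 53 were tested. Of these 14 were called, 6 higher and 8 lower, which is 26.4% beside 19.9% of all tested genes. The median log2 change of the 53 was 0.02, the same as over all tested genes. The called genes are all named here, and those beyond the largest rise and fall of each list were chosen after their values were seen. So were uncalled genes named below, such as RFNG, KAT2B, MAML1, TLE3 and MYC.

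**Figure D4:**
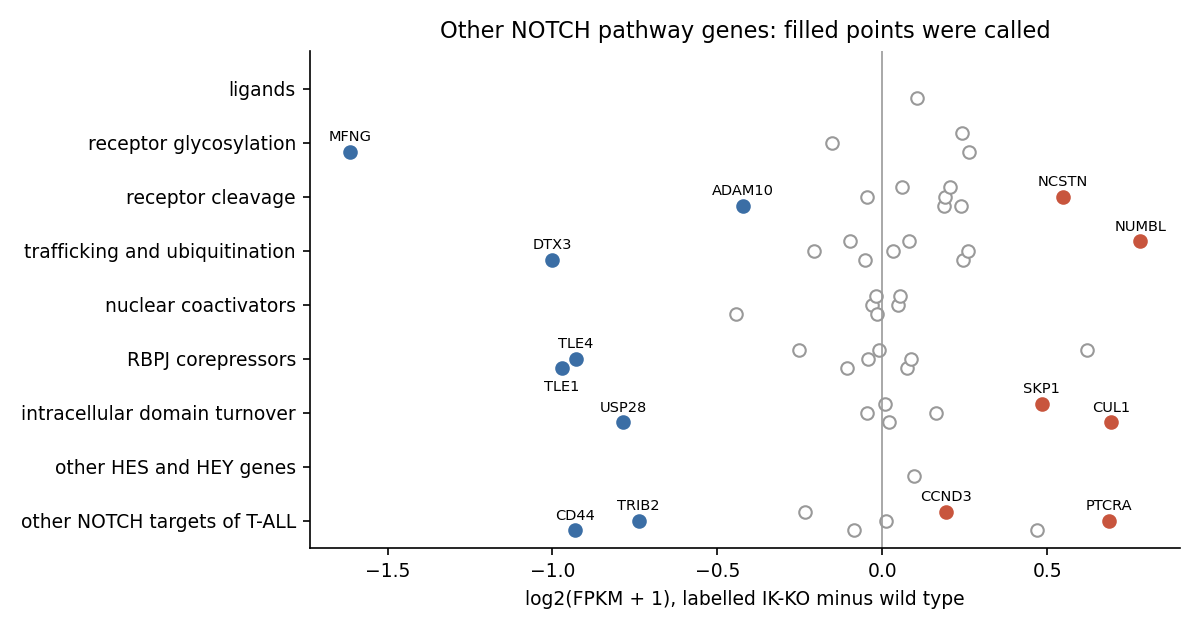
Log2 change (labelled IK-KO minus wild type) of the 53 tested pathway genes, by role. Filled points were called, red higher and blue lower, and open points were not. The largest change is the fall of MFNG (−1.61), and called genes lie on both sides of 0.

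Ligand RNA was nearly absent. Of 7 ligand genes 6 lay below 1 FPKM in each library and 2, DLL4 and DLK1, were listed at 0 in all of them; DLK2, a noncanonical ligand, was the only gene tested and was not called (log2 change 0.11, limma adjusted p 0.726). The fourth receptor, NOTCH4, lay between 0.0959 and 0.387 FPKM.

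Among 4 tested genes of receptor glycosylation, 1 was called. MFNG, a Fringe enzyme that extends sugars on the receptor and alters its response to ligands, was at 14.9, 15.0025 and 13.8 FPKM in wild type libraries, against 3.76, 4.57 and 3.94 FPKM in the IK-KO-labelled libraries. No pathway gene fell further: the log2 change was −1.61 (SE 0.09, limma adjusted p 0.000103), and the call held in each alternative. Its homologue RFNG, with means of 11.6 ± 2.23 and 14.0 ± 1.03 FPKM (SD, n = 3), was not called, and LFNG stayed below 1 FPKM.

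Of 8 tested genes of receptor cleavage, 2 were called. ADAM10, the protease that makes the ligand-dependent cut, fell from 123 ± 2.82 to 91.8 ± 6.48 FPKM (SD, n = 3; log2 change −0.42, limma adjusted p 0.00394). NCSTN, a subunit of the γ-secretase complex that makes the next cut, rose from 15.3 ± 1.33 to 22.9 ± 2.17 FPKM (SD, n = 3; log2 change 0.55, limma adjusted p 0.00809). NCSTN was not called with the neighbours' median removed (log2 change 0.29, limma adjusted p 0.0880).

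Of 9 tested genes of trafficking and ubiquitination, 2 were called. DTX3, a Deltex relative of DTX1, fell from 16.6 ± 0.925 to 7.91 ± 1.86 FPKM (SD, n = 3; log2 change −1.001, limma adjusted p 0.00436). NUMBL, a homologue of the NOTCH inhibitor NUMB, rose from 1.90 ± 0.337 to 4.04 ± 1.002 FPKM (SD, n = 3; log2 change 0.78, limma adjusted p 0.0246), a call lost without wild type replicate 1 or 2 or IK-KO replicate 1 or 2, at adjusted p of 0.0775, 0.0797, 0.0800 and 0.0793.

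In the nucleus, 0 of 6 tested coactivator genes were called by limma and 0 had an unadjusted p under 0.05. KAT2B came closest (log2 change −0.44, unadjusted limma p 0.0513), and its groups did not overlap. MAML1, the main Mastermind-like coactivator here, was at 16.4 ± 0.327 and 16.02 ± 0.0469 FPKM (SD, n = 3). Of 9 tested RBPJ corepressor genes 2 were called, the Groucho-family genes TLE1 and TLE4. TLE1 was at 8.98, 8.88 and 7.80 FPKM in wild type libraries, against 3.54, 4.52 and 3.59 FPKM in the IK-KO-labelled libraries. TLE4 fell from 15.2 ± 1.26 to 7.55 ± 1.35 FPKM (SD, n = 3). Both lie on chromosome 9, and their log2 changes of −0.97 and −0.93 were −0.60 and −0.56 with the neighbours' median removed, called in either case. Their relative TLE3, on chromosome 15, was not called (log2 change 0.62, limma adjusted p 0.0555).

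Among 7 genes of intracellular domain turnover, all tested, 3 were called. SKP1 and CUL1, which with RBX1 form the core of the FBXW7 ubiquitin ligase, rose by 0.48 and 0.69 on the log2 scale. CUL1 was at 28.7, 26.4 and 25.7 FPKM in wild type libraries, against 44.4, 43.7 and 44.1 FPKM in the IK-KO-labelled libraries (limma adjusted p 0.000487), and SKP1 had means of 494 ± 52.6 and 689 ± 16.98 FPKM (SD, n = 3). USP28, a deubiquitinase that opposes FBXW7, fell from 7.90 ± 1.51 to 4.15 ± 0.773 FPKM (SD, n = 3; log2 change −0.79, limma adjusted p 0.0145). The USP28 call was lost without IK-KO replicate 1 or 2 (adjusted p 0.0536 and 0.0557).

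The remaining HES and HEY genes were silent or low: 3 of 7, HES3, HES5 and HEY2, were listed at 0 in all libraries, and HES6 was the only one tested (means of 6.48 ± 0.785 and 6.98 ± 0.255 FPKM (SD, n = 3), not called). Of 8 tested genes among other NOTCH targets of T-ALL, 4 were called, and they went both ways. CD44, an adhesion receptor, was at 46.9, 41.3 and 39.9 FPKM in wild type libraries, against 22.3, 20.0 and 23.5 FPKM in the IK-KO-labelled libraries (log2 change −0.93, SE 0.09, limma adjusted p 0.000628). TRIB2, a pseudokinase gene, fell from 18.0 ± 2.83 to 10.5 ± 2.26 FPKM (SD, n = 3; log2 change −0.74), and was not called without wild type replicate 1 or 2 (limma adjusted p 0.0882 and 0.0806).

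PTCRA, which encodes the pre-T-cell receptor alpha chain, rose from 1.44 ± 0.484 to 2.90 ± 0.535 FPKM (SD, n = 3; log2 change 0.69, limma adjusted p 0.0466). Only leaving out wild type replicate 1 kept that call: without wild type replicates 2 and 3 and IK-KO replicates 1, 2 and 3, the adjusted p was 0.117, 0.107, 0.134, 0.116 and 0.0609. CCND3, a D-type cyclin gene, had a log2 change of 0.19 (limma adjusted p 0.0242). It was not called without wild type replicate 1 or 3 or IK-KO replicate 1 or 2, at adjusted p of 0.0743, 0.0575, 0.0766 and 0.0787. Both genes lie on chromosome 6, and with the neighbours' median removed PTCRA was at 0.43 (limma adjusted p 0.185) and CCND3 turned to −0.08. MYC, a NOTCH1 target that drives growth of T-ALL cells, was at 183 ± 10.7 and 172 ± 2.63 FPKM (SD, n = 3) and was not called (log2 change −0.08, 95% interval −0.21 to 0.04, limma adjusted p 0.317).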

How the data were processed

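PolyA RNA-seq tables of 6 MOLT-4 libraries were used, 3 wild type and 3 labelled IK-KO, grouped by their titles. The authors deposited FPKM per gene with confidence bounds and an estimation status. The submitters' processing notes name STAR 2.6.1c, Cufflinks 2.2.1, HOMER 4.10 and hg38, without roles; annotation and strand setting are not given in the sources used here. The kit named in the labels does not state strand, so antisense and overlapping genes are uncertain; those overlapping the 10 genes were at 0.521 FPKM or less. No counts are given, so depth is known only through the FPKM bounds.

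Rows of one gene identifier were summed, and genes among 29 rows without an estimate in some library were left out. Log2(FPKM + 1) was fitted with limma 3.58.1 in R 4.3.3 (eBayes with trend, two-sided, Benjamini-Hochberg) over the 12652 genes whose mean FPKM reached 1; this scale understates changes of low genes. The fit was tested on simulated data. The study states unadjusted p-values and a 2-fold limit for counts; limma suits 3 FPKM libraries a group. Neighbours' medians came from 50 tested genes on each side. Named genes were the 10 genes, IKZF1 and the called genes of each list with the largest rise and fall. Other list genes named, called or not, were chosen after their values were seen, apart from those with no signal in any library. Genes and lists were chosen with earlier results of these data known. Promoters are RefSeq's, 250 bases each. Alternatives were other pseudocounts, filters, scalings and models, and leaving out each library.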

Additional observations from a re-analysis of the deposited data

How the results depend on the processing

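HES1 and IKZF1 kept their direction and call in all 16 alternatives, with log2 changes from 0.51 to 0.64 and from 0.78 to 0.97, and RBPJ stayed uncalled in its 16 (0.20 to 0.34). With the replicate block, NOTCH2 kept its log2 change of −0.46 but lost its call (limma adjusted p 0.0573), so 1 of the 10 genes was called; the block also ended the calls of NUMBL, PTCRA and TRIB2. Replicate numbers gave no pairing, as same-numbered libraries deviated together at correlations of only 0.067, 0.025 and 0.005. Summing NOTCH2 with its copies, chosen after the data were seen, gave −0.24. Removing neighbours' medians called NOTCH1 (0.43) and turned CCND3 (−0.083); the cause was not tested. With one library left out, the log2 change lay from 0.02 to 0.09 for NOTCH1, from −0.54 to −0.40 for NOTCH2 and from −0.094 to 0.21 for FBXW7, between 1 and 2 of the 10 genes were called, and the chromosome 9 median lay from −0.38 to −0.33. That median was −0.39 with a pseudocount of 0.1, −0.11 without the filter and −0.36 with median-ratio scaling, and the median around NOTCH1 was −0.39 with 25 neighbours on each side. Without the filter on low values the calls of NUMBL, USP28, PTCRA and TRIB2 were lost, and eBayes without trend lost CCND3. By an unadjusted p under 0.05 with a 2-fold change, 447 genes and 0 of the 10 were called. Counts over all genes (1692 to 2803 in the other alternatives) and over the pathway lists (10 to 15) stayed within 1.5 times. Depth limits HES4, DTX1, NOTCH3 and NRARP, all below 1 FPKM on average.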
